A study of Mus musculus with 6 samples.

Results

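Thrombospondins are secreted glycoproteins of the extracellular matrix, and the genes described here are 3 of them, Thbs1, Thbs2 and Thbs3, with the thrombospondin receptors Cd36 and Cd47 and the adhesion receptor Adgrb1, whose extracellular part carries thrombospondin repeats. The 6 genes were chosen by symbol from a table of 19618 genes, each has 1 row there, and all 6 passed the filter on low counts. Thbs1 and Adgrb1 were the start of the choice because they were among the largest falls in the comparison of knockout with control. Their values in that comparison are therefore given as a description and support nothing further.

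Thrombospondins act mainly by binding other proteins rather than as structural fibres. Thbs1 and Thbs2 are closely related, assemble as trimers and carry type 1 repeats, the part that binds Cd36 and blocks the growth of blood vessels, while Thbs3 belongs to a subgroup without these repeats. Cd36 is a scavenger receptor and fatty acid carrier, and Cd47 is a widely expressed membrane protein that binds the end of Thbs1 and serves as a "do not eat me" signal by binding Sirpa on phagocytes. Adgrb1 is known best from brain, as a receptor that recognises phosphatidylserine on dying cells and starts engulfment through the Elmo and Dock proteins. In skin, keratinocytes are a known source of Thbs1.

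RNA sequencing was done on keratinocytes, the main cells of the epidermis, isolated from mouse tail skin at 4 months of age, to compare epidermis with and without Gpr161, a receptor of the primary cilium that restrains Hedgehog signalling. The 3 knockout samples had the genotype K14cre+/ Gpr161Flox-Homozygous. In this genotype Cre recombinase is driven by a keratin 14 promoter and so acts in basal keratinocytes and their progeny. For the 3 controls the labels list no K14cre: 1 was Gpr161Flox-Homozygous and 2 were Gpr161Flox-Heterozygous, so Cre itself differs between the groups along with the deletion and their effects cannot be told apart. The column names show the group but no mouse, so each library goes by its column tag: DE679, DE688 and DE685 are knockout libraries, and DE680, DE689 and DE684 are controls. The labels do not state whether the samples are separate animals, so p-values measure the spread between these samples.

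Libraries held 17157864 to 25344399 estimated counts, and levels are given as CPM, counts relative to library size after scaling between libraries with TMM factors. At this depth 3 counts are 0.117 to 0.173 CPM, which covers counting error only. Markers of keratinocytes were high in every library: the summed level of 6 basal genes, Krt5 and Krt14 among them, ran from 30475 to 34248 CPM among knockout and from 26528 to 31536 CPM among control libraries. Gpr161 itself did not pass between the groups over the whole gene (log2 fold change −0.13, SE 0.11, edgeR adjusted p 0.553), so its counts are no test of the labels, and directions rest on the labels alone. Y-linked transcripts, at 3311 and 5291 counts, were present in DE685 and DE684 and at most 3 counts were found in each of the others. Differences were tested with edgeR's quasi-likelihood test over 15422 genes, and an adjusted p (Benjamini-Hochberg) under 0.05 is called a pass. For a single gene, the smallest p that an exact two-sided permutation test can give with 3 libraries per group is 0.1.

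Of the 6 genes, Thbs1 and Adgrb1, the 2 used to start the choice, passed, both lower in the knockout, and the other 4 did not. The same 2 had an unadjusted p under 0.05, against 19.0% of all tested genes. Over all tested genes 1.60% passed in either direction and 0.357% passed as lower in the knockout. Groups did not overlap for the same 2 genes, against 25.6% of all tested genes. Because the choice used this contrast, nothing is read from these counts.

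Thbs1 (chromosome 2, 118111876 to 118127133, plus strand, GRCm38) was the thrombospondin with the highest level and the only one of the 3 that passed. Its level was 114 CPM in DE679, 123 in DE688 and 96.2 in DE685, and among the controls 175 CPM in DE680, 182 in DE689 and 241 in DE684. Every knockout library lay below every control library, and DE684 stood above the other controls. Mean knockout and control levels were 111 ± 13.6 and 199 ± 36.5 CPM (SD, n = 3 each), so that the knockout held 55.7% of the control level. The log2 fold change was −0.84 (SE 0.14, 95% interval −1.16 to −0.52, edgeR adjusted p 0.0354).

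The Thbs1 values can be set side by side within the sets of libraries. The knockout held 39.9% of the control level between the 2 libraries with Y-linked counts and 66.4% among the 4 others. The first of these sets holds 1 library per group. A fit with a term for the difference between the sets gave a log2 value of −0.74 for Thbs1. Because that value rests on 1 library per group in the first set, nothing further is read from it. Leaving out DE684 moved the log2 fold change to −0.68 (edgeR adjusted p 0.0467). Leaving out DE679, DE680, DE685, DE688 or DE689 in turn kept the direction but not the pass, with edgeR adjusted p of 0.135, 0.0640, 0.0857, 0.0799 and 0.0683. Of the Thbs1 exon length, 3.42% is shared with the lincRNA Gm29233 on the opposite strand, and whether the counting used the strand that the library kit keeps is not given in the sources used here.

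Thbs2 (chromosome 17, 14665500 to 14694235, minus strand), the close relative of Thbs1, did not pass. The knockout libraries had 22.8 CPM (DE679), 27.2 CPM (DE688) and 20.3 CPM (DE685), and the controls 31.9 CPM (DE680), 37.8 CPM (DE689) and 21.9 CPM (DE684). The groups overlapped through DE684, the control in which Thbs1 was highest and Thbs2 lowest. The means were 23.4 ± 3.48 and 30.6 ± 8.07 CPM (SD, n = 3 each), at a fitted log2 difference of −0.38 (SE 0.20, 95% interval −0.84 to 0.078, edgeR adjusted p 0.336).

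Thbs3 (chromosome 3, 89215180 to 89226837, plus strand) was the most even thrombospondin. Its level was 6.66, 6.07 and 7.47 CPM in DE679, DE685 and DE688, and 6.88, 7.06 and 6.23 CPM in DE680, DE684 and DE689. The groups overlapped fully, with means of 6.73 ± 0.704 and 6.72 ± 0.438 CPM (SD, n = 3 each). The fitted log2 difference of Thbs3 was 0.0044 (SE 0.15, edgeR adjusted p 0.991), and its 95% interval, −0.33 to 0.34, does not hold a fall of the size seen for Thbs1. Of its exon length, 6.59% is shared with the protein-coding gene Mtx1 on the opposite strand. Comp, another thrombospondin, known from cartilage, had 1 to 4 counts per library and was not tested. Thbs4 had no row among the 19618 genes.

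**Figure D1:**
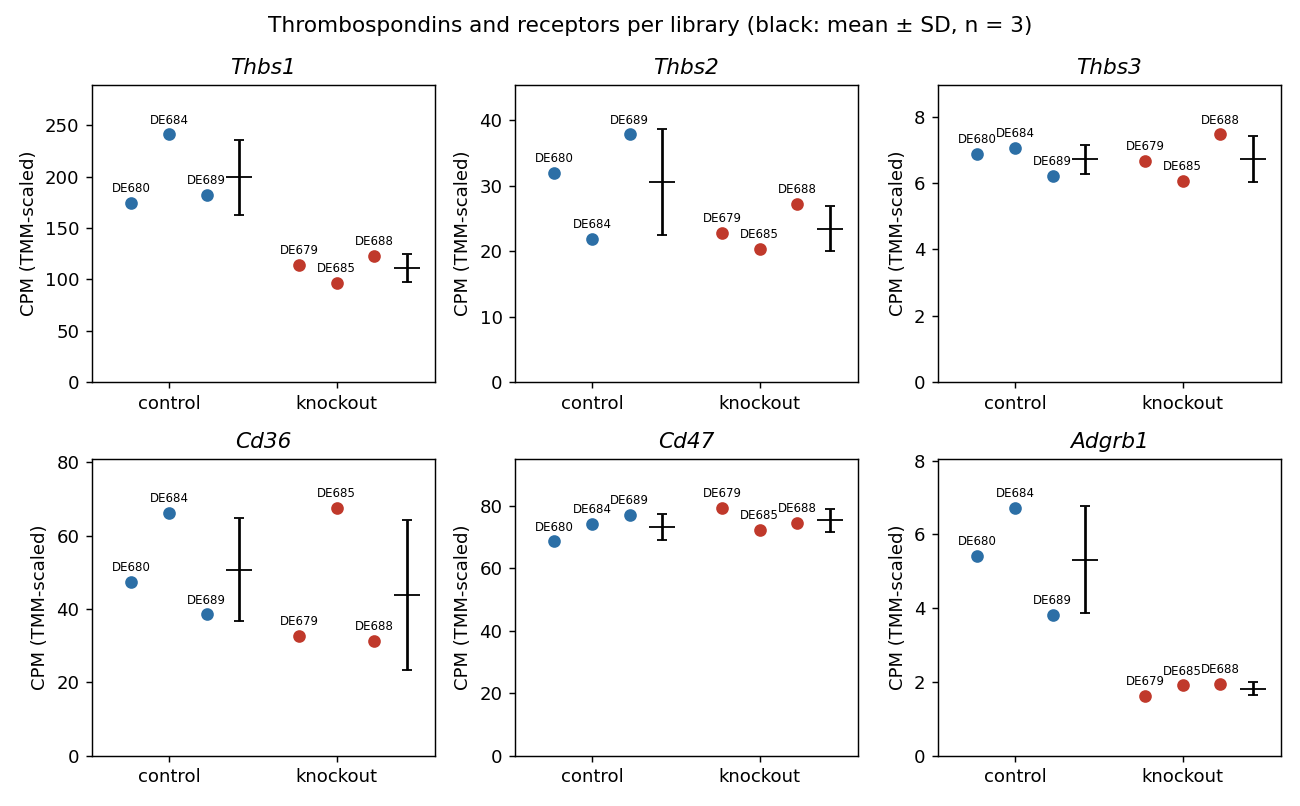
Level of each gene in each library, in CPM with TMM scaling, on axes that start at 0; blue points are control and red points knockout libraries, and black marks are the mean ± SD of 3 libraries. Thbs1 and Adgrb1 show no overlap between the groups, Cd47 and Thbs3 are nearly level, and Cd36 is highest in DE684 and DE685, a control and a knockout.

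The thrombospondins kept unequal shares. Set per kb of exon, to allow for gene length, Thbs1 made up 78.9% to 80.2% of the summed level of Thbs1, Thbs2 and Thbs3 in the knockout libraries and 81.8% to 89.6% in the control libraries. Thbs1 was therefore the main thrombospondin transcript of these 3 in every library of both groups. Thbs2 followed with 13.9% to 15.1% in the knockout and 7.05% to 14.7% in the control.

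Among the receptors, Cd36 (chromosome 5, 17781690 to 17888801, minus strand) varied most within groups. The knockout libraries had 32.7 CPM (DE679), 31.3 CPM (DE688) and 67.5 CPM (DE685), and the controls 47.5 CPM (DE680), 38.5 CPM (DE689) and 66.1 CPM (DE684). DE685 in the knockout and DE684 in the control, the libraries with Y-linked counts, were the highest of their groups and nearly equal. Between the genotypes the log2 fold change was −0.22 (SE 0.32, 95% interval −0.95 to 0.52, edgeR adjusted p 0.753). Leaving out DE684 turned it to 0.020 (edgeR adjusted p 0.982), and leaving out DE685 gave −0.66 (edgeR adjusted p 0.194).

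The split of Cd36 by Y-linked counts was tested after these values were seen. With genotype as a term, Cd36 was higher in the 2 libraries with Y-linked counts than in the 4 without, at means of 66.8 and 37.5 CPM, a log2 difference of 0.85 (SE 0.12, edgeR adjusted p 0.0371). In that comparison 0.460% of all tested genes passed and 10.4% had an unadjusted p under 0.05. None of the other 5 genes passed, and of these Thbs2 alone had an unadjusted p under 0.05 (log2 difference −0.49, SE 0.13, unadjusted p 0.00689, edgeR adjusted p 0.218). The pass of Cd36 was kept without DE680 (edgeR adjusted p 0.0132) and lost without DE679, DE684, DE685, DE688 or DE689, with edgeR adjusted p of 0.0771, 0.163, 0.334, 0.0797 and 0.0682. The labels do not give the sex of the mice, and the split rests on 2 libraries. These libraries, DE684 and DE685, also have neighbouring column tags, so the split cannot be told apart from a difference between neighbouring libraries. Xist had 1 count in DE684 and 6 in DE685, and 17265 to 18182 in each of the 4 others. Among the 4 libraries without Y-linked counts, Cd36 was 31.3 to 32.7 CPM in knockout and 38.5 to 47.5 CPM in control libraries.

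Markers of other cells were set beside Cd36, and their part in its level was not tested. The summed level of 6 suprabasal keratinocyte genes (Krt1, Krt10, Lor, Ivl, Flg and Krtdap) was 32980 CPM in DE684 and 24103 in DE685, and 16718 to 23216 CPM in the 4 other libraries. Of the 6, Krt1 alone was higher in both of these libraries than in all the others (4303 and 4159 against at most 2777 CPM). In DE685, Krt10 (17304 CPM) lay below its level in DE680 (17491 CPM), and Lor, Ivl and Krtdap (742, 21.0 and 1383 CPM) lay below every library but DE679. The summed level of 6 myeloid and Langerhans cell genes went the other way, with 19.96 CPM in DE684 and 40.5 in DE685 against 60.1 to 99.3 CPM in the others. Of 6 adipocyte markers, a cell type known for Cd36, 2 were tested, and their summed level over the 4 with a row was 1.42 to 5.24 CPM. In bulk RNA, more cells of a type and more RNA per cell cannot be told apart.

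**Figure D2:**
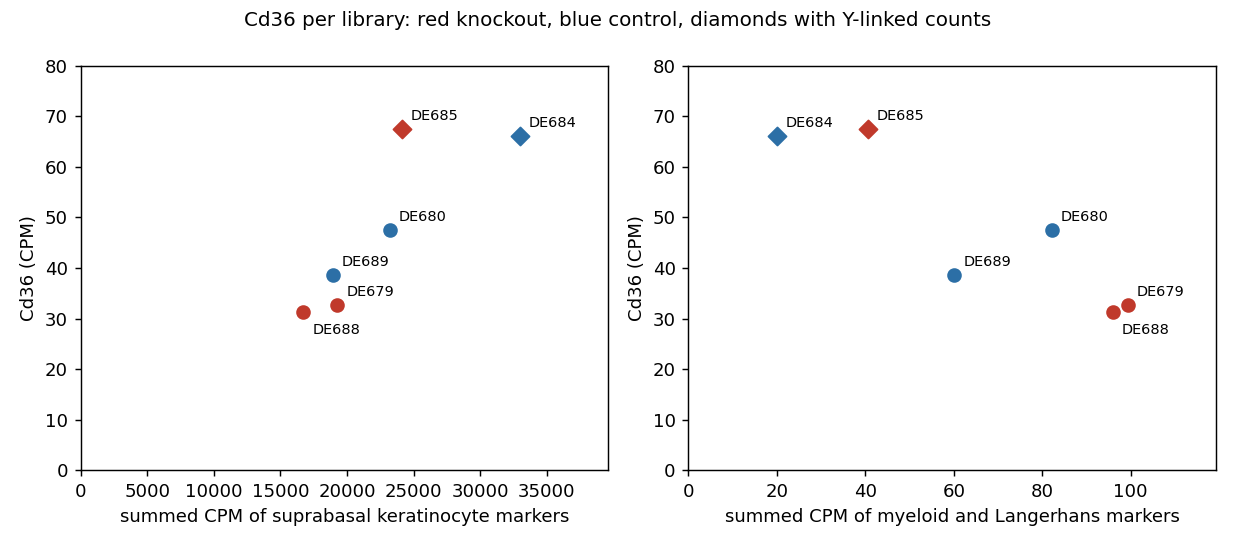
Cd36 in CPM against the summed CPM of suprabasal keratinocyte markers (left) and of myeloid and Langerhans cell markers (right), 1 point per library, red for knockout and blue for control, diamonds for the 2 libraries with Y-linked counts. The 2 diamonds lie at 66.1 and 67.5 CPM of Cd36, above the 4 circles at 31.3 to 47.5 CPM.

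Cd47 (chromosome 16, 49800533 to 49915010, plus strand), the receptor for the end of the thrombospondin chain, was the steadiest of the 6 genes. Its level was 79.3, 72.3 and 74.4 CPM in DE679, DE685 and DE688, and 68.6, 74.2 and 77.0 CPM in DE680, DE684 and DE689. The groups overlapped, and the SD was 4.75% of the mean in the knockout and 5.84% in the control. The log2 fold change was 0.040 (SE 0.067, edgeR adjusted p 0.786), and the 95% interval of −0.12 to 0.20 bounds the difference closely.

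Adgrb1 (chromosome 15, 74516195 to 74589465, plus strand) had the lowest level of the 6 genes and the largest difference. Its estimated counts were 38 in DE679, 50 in DE688 and 33 in DE685, against 122 in DE680, 96 in DE689 and 153 in DE684. On the CPM scale these were 1.61, 1.94 and 1.91 in the knockout and 5.41, 3.81 and 6.71 in the control. The knockout libraries were low and close together, and the control libraries were spread out above them. The means were 1.82 ± 0.182 and 5.31 ± 1.45 CPM (SD, n = 3 each), 34.3% of the control level. The log2 fold change was −1.54 (SE 0.26, 95% interval −2.14 to −0.95, edgeR adjusted p 0.0360).

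The direction of the Adgrb1 difference was the same in both sets of libraries, at 28.4% of the control level between the 2 with Y-linked counts and 38.6% among the 4 others. The pass was kept without DE689 (log2 fold change −1.73, edgeR adjusted p 0.0293). It was lost without DE679, DE680, DE684, DE685 or DE688, with edgeR adjusted p of 0.150, 0.0948, 0.0765, 0.0879 and 0.117, and with limma-voom on all 6 libraries (adjusted p 0.0561). Of the Adgrb1 exon length, 1.32% is shared with the miRNA gene Gm26117 on the same strand. Adgrb1 is known from neurons, and the summed level of the 5 Schwann cell and neuron markers with a row was 14.1 to 22.8 CPM in knockout and 23.7 to 34.8 CPM in control libraries. That sum was mostly Tubb3, and 3 of the 4 markers tested had a log2 fold change above 0. The part of such cells in the Adgrb1 level was not tested.

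**Figure D3:**
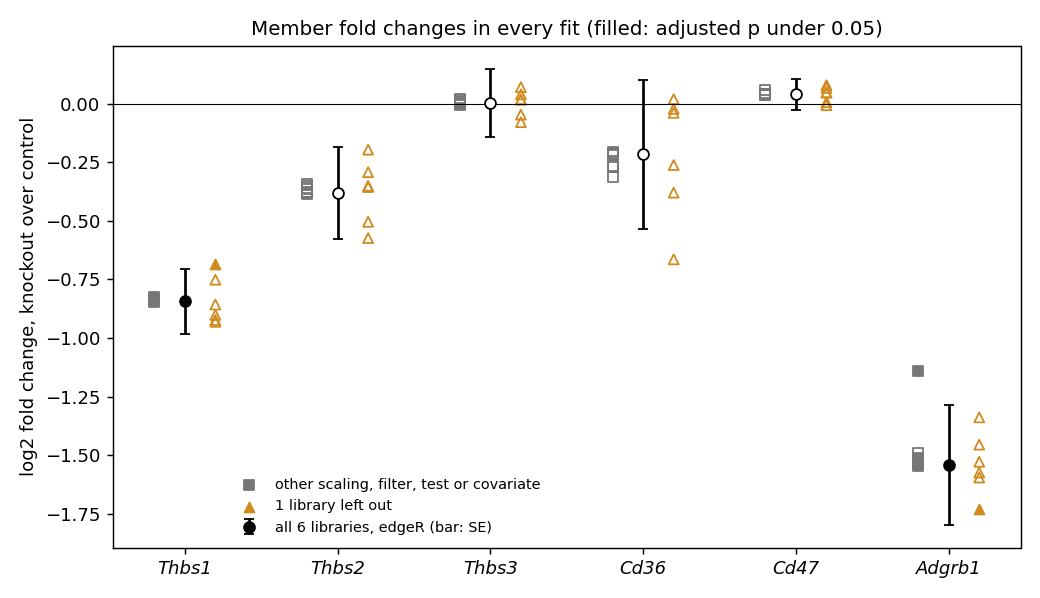
Log2 fold change of each gene, knockout over control, with all 6 libraries (black circles, bars are the SE), under 8 other scalings, filters, tests or a covariate (grey squares) and with 1 library left out (orange triangles); filled symbols have an adjusted p under 0.05. Thbs1 stays between −0.93 and −0.68 and Adgrb1 between −1.73 and −1.14, while Thbs3, Cd36 and Cd47 have values on both sides of 0.

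By group means, the order of the levels per kb of exon was Thbs1, Cd36, Cd47, Thbs2, Thbs3 and Adgrb1 in both groups. In the control, Thbs1 had 32.8 ± 6.01, Cd36 14.1 ± 3.92, Cd47 11.7 ± 0.682, Thbs2 4.36 ± 1.15, Thbs3 1.39 ± 0.0909 and Adgrb1 0.735 ± 0.201 CPM per kb (SD, n = 3). Cd36 and Cd47 overlapped there, and the other neighbours in the order did not. In the knockout, Thbs1 had 15.8 to 20.3 CPM per kb and Cd36 had 8.71 to 18.8, so that these neighbours overlapped as well. In DE685 the order of the first 2 was turned, with Cd36 at 18.8 and Thbs1 at 15.8 CPM per kb. Cd36 lay below Cd47 in the knockout libraries DE679 (9.12 against 12.6 CPM per kb) and DE688 (8.71 against 11.9). It also lay below Cd47 in the control DE689 (10.7 against 12.3), and above it in DE680, DE684 and DE685. Adgrb1 lay at 0.223 to 0.269 CPM per kb in the knockout, below Thbs3 at 1.26 to 1.55 CPM per kb.

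**Figure D4:**
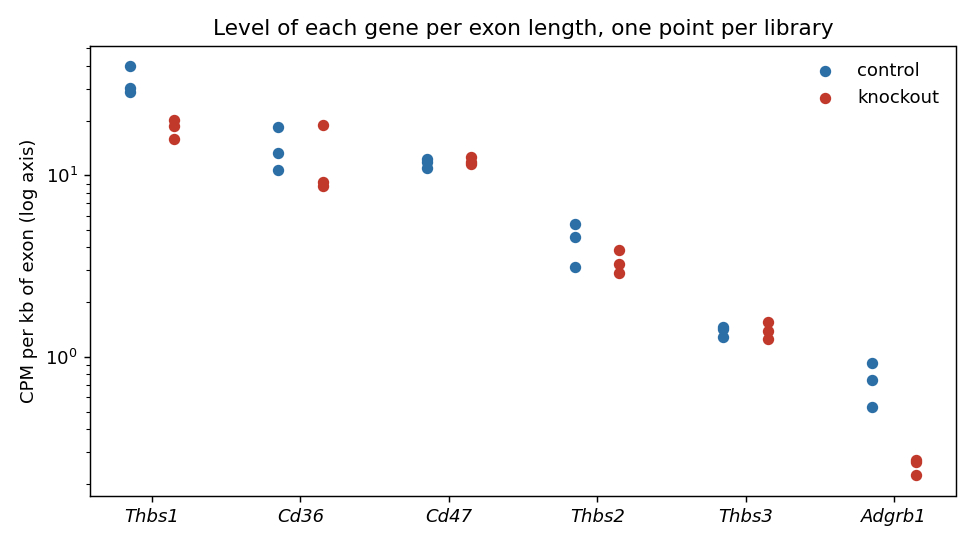
Level of each gene in CPM per kb of exon on a log axis, 1 point per library, blue for control and red for knockout, ordered by the control mean. Thbs1 lies highest, with control libraries at 28.7 to 39.7, and Adgrb1 lowest, with knockout libraries at 0.223 to 0.269.

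Genes with the pattern most like Thbs1 over the 6 libraries, by Pearson correlation of log2 CPM among 13664 genes with a mean of at least 1 CPM, were Ipo7 (r = 0.993), Dpp3 (r = 0.992) and Gyg (r = 0.991). All 3 were lower in each knockout library than in any control, by less than Thbs1, with log2 fold changes of −0.11, −0.21 and −0.16 that did not pass. For Adgrb1 they were Eif5a (r = 0.996), Spcs1 (r = 0.994) and Sema3d (r = 0.992). Of these, Sema3d passed (log2 fold change −0.53, SE 0.089, edgeR adjusted p 0.0366), and the other 2 had −0.17 and −0.19. These correlations describe the same 6 libraries, include the difference between the groups, and were picked as the highest of many.

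The genes around the thrombospondins were taken as 10 lists of partners, relatives and targets, 173 genes in all. Of the 138 tested, 8 passed as higher in the knockout and 0 as lower, or 5.80%, beside 1.24% of all tested genes that passed as higher. Their median log2 fold change was 0.037, beside −0.0036 over all genes. The 0 genes that passed as lower stand beside 0.357% of all tested genes, a share too small to set 138 genes apart from it. The lists were chosen with earlier results of these data known, so nothing is read from these shares. With 1 library left out, which lowers the number by construction, 1 to 4 of the list genes passed.

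Among 16 other receptors and binding partners tested, 1 passed, Sirpa, the inhibitory receptor through which Cd47 holds back phagocytes. Sirpa had 87.8, 72.7 and 67.3 CPM in DE679, DE688 and DE685 and 52.7, 49.8 and 51.8 CPM in DE680, DE689 and DE684. Every knockout library was above every control library, and the fitted log2 difference was 0.56 (SE 0.10, edgeR adjusted p 0.0409). The pass was kept without DE685 (edgeR adjusted p 0.0474) and lost without any of the other 5, with edgeR adjusted p of 0.0816 to 0.123. The summed level of the myeloid and Langerhans cell markers overlapped between the groups, 40.5 to 99.3 CPM in knockout and 19.96 to 82.2 CPM in control libraries. The integrin subunits that bind thrombospondins, Itgav, Itgb1, Itgb3, Itga3, Itga4 and Itga6, the endocytic receptor Lrp1, calreticulin (Calr) and the syndecans Sdc1 and Sdc4 did not pass. Their log2 fold changes ran from −0.67 for Itgb3 to 0.15 for Itgav. The list's median was −0.043, with 6 genes above 0 and 10 below.

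The Cd47 list added the nitric oxide pathway that Cd47 is known to restrain. Apart from Sirpa, which is in both lists, none of its other 7 tested genes passed, among them Nos3, Gucy1a1, Gucy1b1 and Prkg2, and its median log2 fold change was −0.025.

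In the engulfment list around Adgrb1, 0 of 16 tested genes passed, with a median log2 fold change of 0.025, 8 genes above 0 and 8 below. The smallest adjusted p among the effectors Elmo1, Elmo2, Elmo3, Dock1 and Rac1 was 0.112, for Elmo3 (log2 fold change 0.30). Adgrb2, the relative of Adgrb1, was far more abundant at 36.9 ± 7.63 and 40.0 ± 18.8 CPM (SD, n = 3 each), and per kb of exon it had 5.70 CPM in knockout and 6.17 CPM in control libraries. Its log2 fold change was −0.11 (SE 0.30, edgeR adjusted p 0.874), and its groups overlapped, with DE684 the highest at 61.7 CPM. Adgrb3 had no row among the 19618 genes.

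Of 35 other proteins with thrombospondin type 1 repeats, 2 passed, both higher in the knockout. Adamts7, a secreted metalloprotease known to cleave Comp, had 6.53, 8.48 and 6.93 CPM in DE679, DE688 and DE685 and 1.02, 0.952 and 1.36 CPM in DE680, DE689 and DE684. Its groups lay far apart, with a fitted log2 difference of 2.72 (SE 0.22, edgeR adjusted p 0.00228), and it passed in each of the 6 fits without 1 library. Sema5a, a guidance protein, had 106, 87.9 and 107 CPM in the knockout libraries in that order and 34.6, 55.8 and 55.1 CPM in the control libraries. Its log2 fold change was 1.05 (SE 0.18, edgeR adjusted p 0.0389), and without DE679, DE684, DE685, DE688 or DE689 it did not pass, with edgeR adjusted p of 0.0648 to 0.149. The list's median was 0.18, with 21 genes above 0 and 14 below, and 18 of its 53 genes were not tested.

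Other matricellular proteins, which like the thrombospondins act on cells from within the matrix, included 3 that passed of 12 tested, all higher in the knockout. Postn had 826 ± 57.5 and 492 ± 73.5 CPM (log2 fold change 0.75, edgeR adjusted p 0.0253). Fbln1 had 43.1 ± 5.47 and 25.7 ± 3.43 CPM (0.75, edgeR adjusted p 0.0384), and Tnc had 76.3 ± 13.4 and 47.0 ± 2.68 CPM (0.70, edgeR adjusted p 0.0394), all SD with n = 3 each. The median of the list was −0.21, since 7 of its 12 genes had values below 0. Postn kept its pass without DE684 or DE689, Fbln1 without DE684 or DE685 and Tnc without DE685, and they lost it in the other fits without 1 library, with edgeR adjusted p up to 0.156. The summed level of 6 fibroblast markers was 129 to 142 CPM in knockout and 37.4 to 79.1 CPM in control libraries. That sum was mostly Dcn, with means of 119 and 31.9 CPM. Of the 5 markers tested, Dcn alone passed, and Col1a1, Col1a2 and Col3a1 had log2 fold changes of −0.38, −0.42 and −0.54. The summed level of pericyte and smooth muscle markers was also higher without overlap, at 147 to 183 against 104 to 123 CPM. That sum was mostly Cspg4. Of 3 tested, 2 passed, Cspg4 (log2 fold change 0.51, edgeR adjusted p 0.0427) and Kcnj8 (2.61, edgeR adjusted p 0.0304). Acta2 did not pass (0.40, edgeR adjusted p 0.753). Among those not tested, Rgs5 had 1.14, 1.09 and 0.231 CPM in DE679, DE688 and DE685, and at most 0.222 CPM, in DE680, among the controls. The values of DE685 and DE680 were nearly equal and near the level of 3 counts, so no difference is read from Rgs5. Pdgfrb and Myh11, also not tested, overlapped between the groups. Melanocyte markers had summed levels of 79.2 to 117 against 54.0 to 78.9 CPM, without overlap, and 0 of 6 passed. The part of these cells in the matricellular values was not tested.

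Thbs1 is known to activate latent TGF-beta. In the list of latent TGF-beta and its targets, 1 of 13 genes passed, Ltbp1, which holds the latent form in the matrix (29.0 ± 3.96 and 15.1 ± 1.52 CPM, SD, n = 3 each, log2 fold change 0.94, edgeR adjusted p 0.0158). Ltbp1 kept its pass without DE679 or DE689 and lost it without DE680, DE684, DE685 or DE688, with edgeR adjusted p of 0.0519 to 0.0682. The 3 ligands had log2 fold changes of 0.41 for Tgfb1, 0.58 for Tgfb2 and 0.84 for Tgfb3, and none passed. The list's median was 0.27, with 10 genes above 0.

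Thbs1 is itself known as a target of the coactivators Yap and Taz, and 0 of 20 other targets passed. Their median log2 fold change was 0.17, with 13 genes above 0 and 7 below, and the classical targets Ccn1 and Ccn2 had 0.54 and 0.30, neither of which passed. Among angiogenic factors and their receptors 0 of 12 passed, with a median of 0.10. Vegfa, the main growth factor of blood vessels, had 32.1 and 26.7 CPM (log2 fold change 0.27, edgeR adjusted p 0.216).

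Endothelial markers were low in every library, with a summed level of 4.85 to 6.42 CPM in knockout and 6.07 to 10.5 CPM in control libraries. Of 7 tested, 0 passed, 6 had a log2 fold change below 0, and the median was −0.87. For platelets, which carry much Thbs1 protein, the summed level of the 3 markers with a row was 6.88 to 8.31 CPM in knockout and 7.81 to 8.83 CPM in control libraries. The part of such cells in the Thbs1 level was not tested.

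Around Cd36, 1 of 18 genes for fatty acid uptake and signalling passed, Scarb1, a lipoprotein receptor of the same family. Scarb1 had 16.7 ± 2.24 and 10.2 ± 0.510 CPM (SD, n = 3 each), with a fitted log2 difference of 0.71 (SE 0.13, edgeR adjusted p 0.0414). It lost the pass in each of the 6 fits without 1 library, with edgeR adjusted p of 0.0518 to 0.160, and with limma-voom (adjusted p 0.0531). The nuclear receptors Pparg and Ppard, which are known to drive Cd36, had log2 fold changes of −0.040 and −0.041, and the carrier Fabp5 had −0.38. The median of the list was 0.023.

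**Figure D5:**
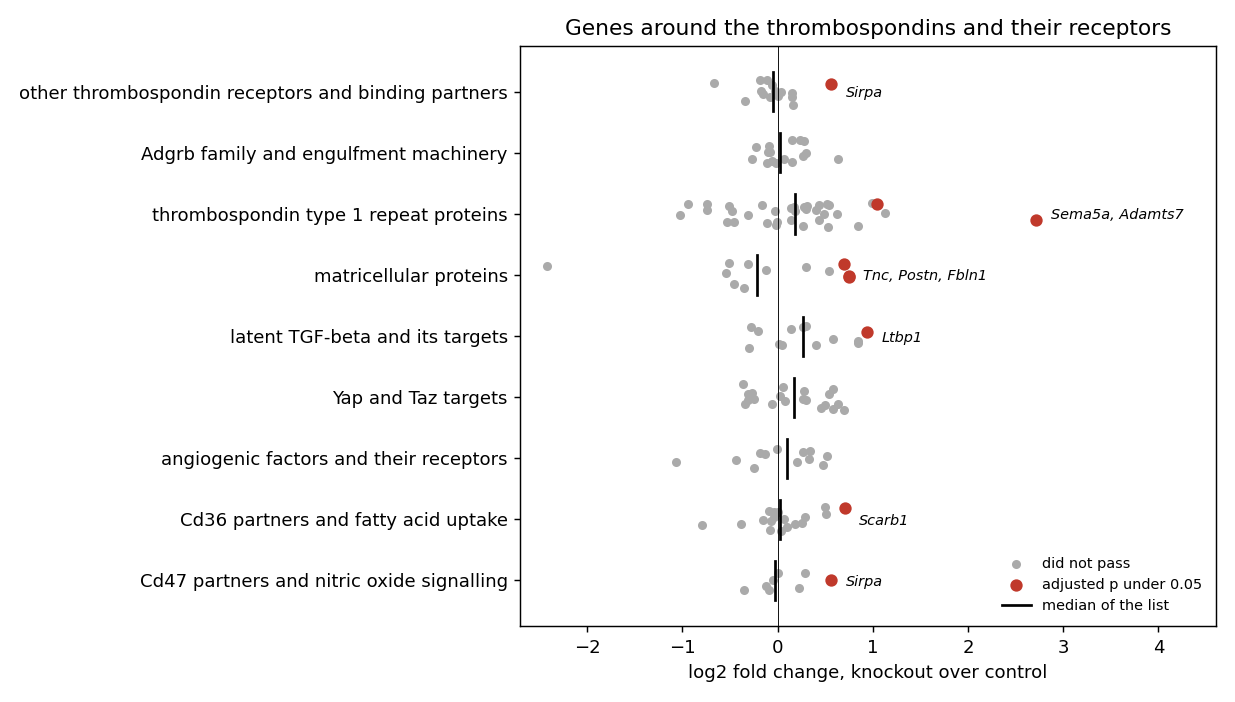
Log2 fold change, knockout over control, of each tested gene in 9 lists (grey), with genes of an adjusted p under 0.05 in red and named in order of size, and the median of each list as a black bar; vertical scatter within a list has no meaning. All red points lie above 0, from Sirpa at 0.56 to Adamts7 at 2.72, and the medians lie between −0.21 and 0.27.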

How the data were processed

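Tail keratinocyte RNA was sequenced in 6 libraries, 3 per group. The submitters' processing notes name bcl2fastq 2.20, cutadapt 1.18, STAR 2.7.0f, Partek and the build mm10. Counting settings, strand use and the annotation are not given in the sources used here. The authors deposited estimated counts per gene (whole numbers made up 53.4% to 58.2% of each library's values) and a normalized signal per gene, scaled per library and never below 0.001. Columns could be tied to a group but to no mouse.

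Estimated counts were rounded, filtered with filterByExpr, scaled with TMM factors (0.975 to 1.03) and fitted with glmQLFit and glmQLFTest (edgeR 4.0.16, R 4.3.3) over 15422 genes, with genotype as the only term. The test had been laid out for counts and was kept for the rounded values. Each standard error is the fold change over the square root of F. Positions and exon lengths came from GENCODE M21 (GRCm38, the build mm10 stands for), which matched the deposited gene positions of the genes described. No pair of libraries within a group agreed within counting error (chi-square over its degrees of freedom 12.2 to 39.9). On simulated data with the real means, 63.0% of genes changed 2-fold and 85.0% of those changed 4-fold were recovered, 100 genes each, among 15191 genes tested, with 14 false calls.

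Alternatives were scaling by RLE or by upper quartiles, a filter on a mean of 1 CPM or none, DESeq2 1.42.0, and limma-voom and limma (3.58.1) on log2 of the authors' signal plus 1, a sex covariate read from Y-linked counts, and each library left out. Genes named beside the 6 were up to 3 per list with the smallest adjusted p under 0.05, and the 3 genes most like Thbs1 and Adgrb1; others named were chosen for their role or after their values were seen. The genes and lists were chosen with earlier results of these data known.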

Additional observations from a re-analysis of the deposited data

How the results depend on the processing

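The number of genes that passed was 247 (192 higher, 55 lower) and moved to 879 with DESeq2 (569 higher, 310 lower, 905 adjusted p-values NA), a share higher of 64.7% against 77.7%, and to 409 with the sex covariate (299 higher, 110 lower). With 1 library left out, which lowers the number by construction, it was 69 to 121 (65 to 109 higher, 3 to 19 lower). The 8 genes of the pathway lists became 28 with DESeq2 and 1 to 4 with 1 library left out; the cause of the DESeq2 and covariate changes was not tested. Log2 fold changes with 1 library left out were −0.93 to −0.68 for Thbs1, −0.57 to −0.20 for Thbs2, −0.079 to 0.071 for Thbs3, −0.66 to 0.020 for Cd36, −0.0063 to 0.079 for Cd47 and −1.73 to −1.34 for Adgrb1. Thbs3 reversed to −0.00018 with no filter and to −0.0045 with limma on the authors' values. Adgrb1 did not pass with limma-voom (−1.49, adjusted p 0.0561). Thbs1 passed under all 8 alternatives that kept every library. The Cd36 difference by Y-linked counts was 0.62 to 1.08 with 1 library left out and passed under the 4 other alternatives; this comparison and its alternatives were chosen after seeing the data. By labels alone, no paired analysis was possible because the columns carry no replicate numbers, so the fit with a replicate block was not run. By group, the columns run in the same order as the sample titles. The tags DE679 and DE680, DE685 and DE684, and DE688 and DE689 are neighbours, each a knockout and a control. Whether these are pairs was not tested, and no block was fitted on them. Between these neighbours Thbs2 was lower in the knockout each time, at 22.8 against 31.9, 20.3 against 21.9 and 27.2 against 37.8 CPM. The share of all tested genes with such a pattern was not taken, so nothing is read from these values.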
